A study of Mus musculus with 12 samples.

Results

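The miR-29 family of the mouse was followed here through its 3 members, mmu-miR-29a, mmu-miR-29b and mmu-miR-29c (below without the prefix for the species), in a miRNA-Seq comparison of frontal cortex (FCx) and hippocampus (HP). The members were taken by name, without their star forms, and they are 3 of the 469 miRNAs that were listed in any of the 12 lane files. All tissue came from C57BL/6J mice of 8 weeks and the labels name no treatment. Tissue of 3 adult males was pooled per region, so the 3 FCx libraries share 1 RNA pool and the 3 HP libraries share another. What tells the 3 libraries of 1 region apart is their index, 6 nt that close the 5′ adaptor and are ligated to the first base of the miRNA. Each was sequenced by itself (individual lane) and together with the others (pooled lane), and the counts of both were summed. Replicate spread here is thus technical, index included, and says nothing of how animals vary.

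MiRNAs are small RNAs that lower the output of mRNAs with sites matching their seed, which is the stretch of bases 2 to 8. The miR-29 family is known for targeting mRNAs of collagens and other matrix proteins, of DNA methyltransferases and, in neurons, of pro-apoptotic BH3-only proteins. It becomes abundant as the brain matures. The members come from a pair of clusters, 1 on chromosome 6 and 1 on chromosome 1, and each cluster carries a copy of the miR-29b hairpin.

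The mature sequences are shown because the members share the seed and differ only in the bases after it. They are given 5′ to 3′ from RefSeq (GRCm38.p6), with the seed in capitals.
miR-29a: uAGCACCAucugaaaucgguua
miR-29b: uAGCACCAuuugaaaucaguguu
miR-29c: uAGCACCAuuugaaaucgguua
Counted from 1 at the 5′ end, miR-29a and miR-29c differ by a single substitution, C10U. Compared with miR-29c, miR-29b has the substitutions G18A, U21G and A22U and is 1 base longer. The first 17 bases of miR-29b and miR-29c are identical, so a read that short cannot be assigned to either of them.

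The index tags are shown because the members' levels differed between them. They are written 5′ to 3′, with the last base, which meets the miRNA, in capitals.
index 3: uuaggC
index 7: cagauC
index 11: ggcuaC
All 3 tags end in C, and the base before the mature miRNA is also C in all 4 hairpins of the family.

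The hairpins were placed in NCBIM37, the build of the deposited alignments, with GENCODE vM1. In each window below the mature miRNA is in capitals, with 3 bases before and 2 bases after it in lower case, on the strand of the hairpin.
Mir29a, chr6:31012671-31012697, minus strand: uucUAGCACCAUCUGAAAUCGGUUAua
Mir29b-1, chr6:31013023-31013050, minus strand: gucUAGCACCAUUUGAAAUCAGUGUUcu
Mir29b-2, chr1:196863282-196863309, plus strand: aucUAGCACCAUUUGAAAUCAGUGUUuu
Mir29c, chr1:196863791-196863817, plus strand: gucUAGCACCAUUUGAAAUCGGUUAug
The Mir29a and Mir29b-1 hairpins lie 269 bases apart, and the Mir29b-2 and Mir29c hairpins 426 bases apart. The whole mature miR-29a and miR-29c each matched the genome at 1 place, and miR-29b at 2 places. The annotation lists all 4 as miRNA genes.

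The libraries held from 391410 to 1461732 miRNA counts in FCx and from 3206221 to 4956117 in HP, so that HP values carry the smaller counting error. The brain miRNAs miR-124, miR-9 and miR-128 were abundant in all libraries, with a summed level of 241123 to 271724 CPM (counts after scaling the library to 1000000 miRNA counts) in FCx and 103071 to 167715 CPM in HP. All 3 were above 0 in both regions. MiR-128 was the highest of them in every library, at 177013 to 208464 CPM (FCx) and 63974 to 110495 CPM (HP). MiR-9 went against the sum and was lower in FCx at each index. Its FCx libraries held 17202, 36936 and 28695 CPM for index 3, 7 and 11, and its HP libraries 23927, 57807 and 35218 CPM. MiR-124 was higher in FCx at each index, but fell to 4091 CPM (FCx) and 2504 CPM (HP) at index 11. Of the markers of other tissues, both blood miRNAs summed to 21.0 to 143 CPM over the 6 libraries and both choroid plexus miRNAs to 2.05 to 93.3 CPM. The 3 muscle miRNAs summed to 71.0 to 1079 CPM and the liver miRNA miR-122 to 0.493 to 24.0 CPM. Most of the muscle sum was miR-1, at 1066 CPM (FCx) and 808 CPM (HP) with index 7 and 67.3 to 112 CPM with the other indexes. MiR-133a reached at most 10.7 CPM, highest with index 11 in both regions. MiR-206 reached at most 17.9 CPM, highest with index 3 in both regions. The part of these markers in the results was not tested. In bulk tissue, fewer cells of a type and less RNA per cell cannot be told apart.

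MiR-29a was among the most abundant miRNAs of both regions. In FCx it was measured at 36236 CPM with index 3, 68039 CPM with index 7 and 150560.4 CPM with index 11, on average 84945 ± 59008 CPM (SD, n = 3 libraries). In HP the values were 28105, 80079.6 and 134467 CPM, on average 80884 ± 53186 CPM (SD, n = 3). By mean CPM it was the 4th miRNA of FCx and the 5th of HP. The regions overlapped, whereas the libraries of either region were spread over 4.15-fold in FCx and 4.78-fold in HP, lowest with index 3 and highest with index 11.

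MiR-29c was the second member by level and ran the other way over the indexes. Its FCx libraries held 14698, 2591 and 2802 CPM with index 3, 7 and 11, on average 6697 ± 6930 CPM (SD, n = 3). Its HP libraries held 8656, 2051 and 1376 CPM, on average 4028 ± 4023 CPM (SD, n = 3). Index 3 was the highest in both regions, by 5.67-fold over the lowest library in FCx and by 6.29-fold in HP. It ranked 19th in FCx and 21st in HP.

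MiR-29b, the rarest member although it has 2 hairpins, was measured at 329.6, 343 and 884 CPM in FCx with index 3, 7 and 11. The HP libraries held 281, 301 and 677 CPM. FCx averaged 519 ± 317 CPM and HP 419 ± 223 CPM (SD, n = 3), which ranked 70th and 75th. It followed miR-29a in being highest with index 11, but its libraries with index 3 and index 7 lay close together. The counting error was largest here, since the FCx library with index 3 held 129 counts of miR-29b, with a 95% Poisson interval of 275 to 392 CPM.

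**Figure D1:**
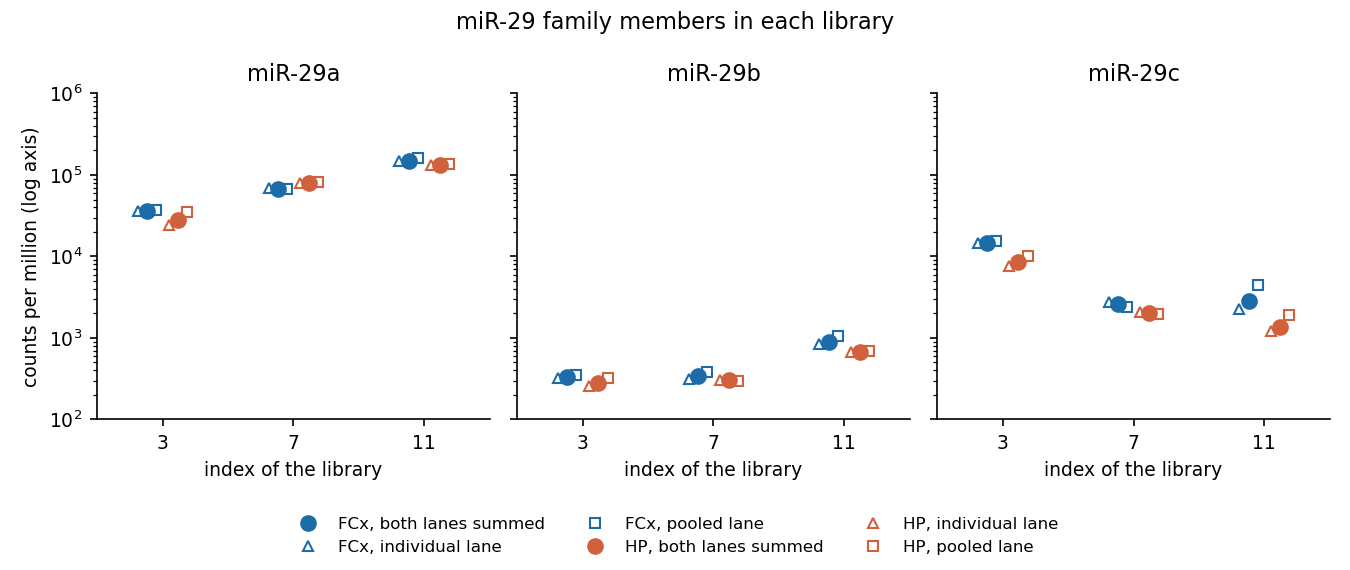
CPM (log axis) of the 3 members in each library, by index; filled circles are both lanes summed, open triangles the individual lane and open squares the pooled lane, FCx in blue and HP in red. MiR-29a and miR-29b were highest with index 11 in both regions, and miR-29c was highest with index 3.

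The 2 lanes of a library differed less for miR-29a and miR-29b than for miR-29c. The log2 ratio of the pooled to the individual lane lay between -0.02 and 0.54 for miR-29a and between -0.03 and 0.34 for miR-29b. The 0.54 belonged to the HP library with index 3, with 24110 CPM in the individual and 35077 CPM in the pooled lane. For miR-29c the ratio ranged from -0.21 to 0.96. Its highest value belonged to the FCx library with index 11, with 2285 CPM in the individual and 4456 CPM in the pooled lane. In both kinds of lane miR-29c remained highest with index 3.

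Together the members held 5.13, 7.10 and 15.4% of the FCx counts with index 3, 7 and 11, and 3.70, 8.24 and 13.7% of the HP counts. FCx averaged 9.22 ± 5.47% and HP 8.53 ± 4.98% (SD, n = 3), and the difference was smaller than the spread between libraries (two-sided exact permutation test, p = 0.8, smallest possible p 0.1). In both regions the share was lowest with index 3 and highest with index 11.

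The composition of the family differed between index 3 and the other indexes. MiR-29a made up 70.7, 95.9 and 97.6% of the family counts in FCx with index 3, 7 and 11, and 75.9, 97.1 and 98.5% in HP. MiR-29c made up 28.7, 3.65 and 1.82% in FCx, and 23.4, 2.49 and 1.01% in HP. MiR-29b stayed between 0.365 and 0.758% in all 6 libraries. With index 3 there were 2.47 counts of miR-29a per count of miR-29c in FCx and 3.25 in HP. With index 11 there were 53.7 and 97.7. The binomial intervals of these shares were narrow, for example 28.1 to 29.3% (Wilson, 95%) for miR-29c in FCx with index 3, and cover counting error only.

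The log2 ratio of miR-29c to miR-29a averaged -1.50, -5.00 and -6.18 over the 2 libraries with index 3, 7 and 11, a range of 4.68. No other way of dividing the 6 libraries into 3 pairs separated them as well (exact permutation test over 15 partitions, region means removed, p = 0.0667, which is the smallest p the design allows). Differences of the shares between FCx and HP were smaller than the spread between libraries, with two-sided exact permutation p-values of 0.6 for miR-29a, 0.9 for miR-29b and 0.6 for miR-29c. That test leaves out the index, by which the libraries are paired. Within the pairs the miR-29a share differed at all 3 indexes by -5.19, -1.28 and -0.886 percentage points (FCx minus HP) with index 3, 7 and 11, and the miR-29c share was higher by 5.30, 1.16 and 0.808 points (exact sign-flip test, two-sided, p = 0.25 for each, the smallest p that 3 pairs allow). The miR-29b share was lower in FCx with index 3 and higher with the others (exact sign-flip test, p = 0.75).

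**Figure D2:**
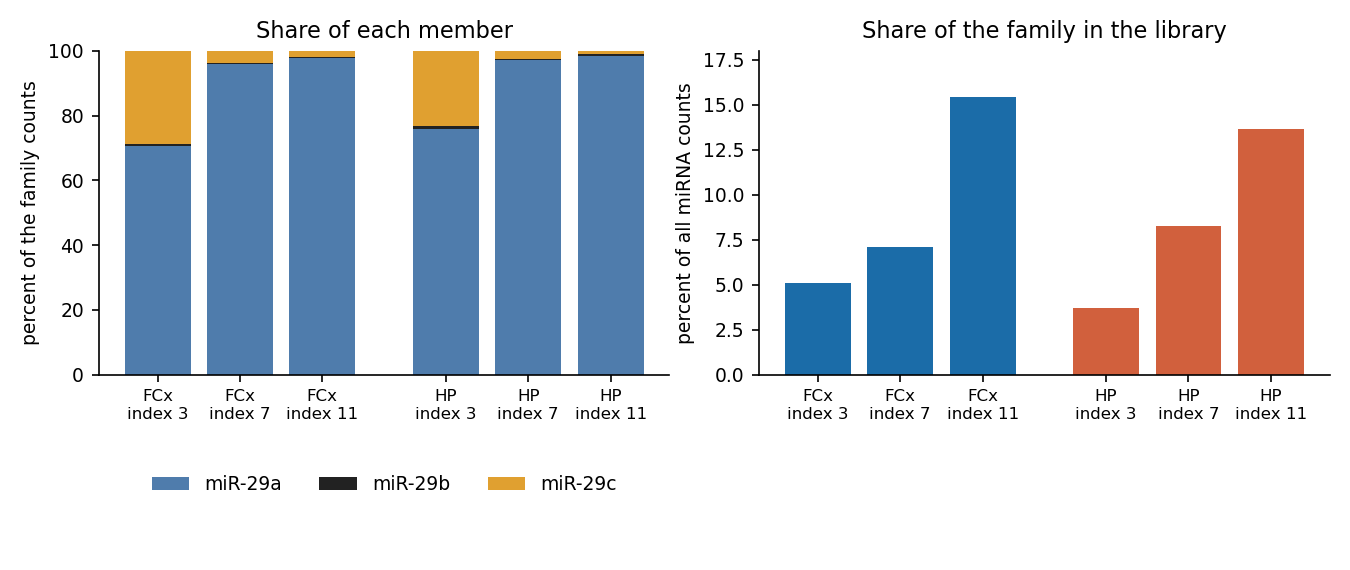
Left, percent of the family counts held by miR-29a (blue), miR-29b (black) and miR-29c (yellow) in each of the 6 libraries; right, percent of all miRNA counts held by the family (FCx blue, HP red). MiR-29c held 28.7 and 23.4% of the family with index 3 and at most 3.65% with the other indexes.

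Whether the members depended on the index was tested in a quasi-likelihood fit of edgeR that also held the region. All 3 members passed, at a background of 61.3% of the 431 miRNAs tested, and of 82.0% among the 139 miRNAs that averaged 100 CPM or more (abundant miRNAs). A call as such is therefore common in these data, and the members' directions tell them apart. On the log2 scale, with TMM normalization and with standard errors (SE) from the fit, miR-29a was higher by 2.67 with index 11 than with index 3 (SE 0.43), miR-29b was higher by 1.84 (SE 0.36), and miR-29c was lower, with a difference of -2.02 (SE 0.38). The p-values of the index test, adjusted by Benjamini and Hochberg over all 431 miRNAs, were 2.45e-08, 3.84e-07 and 2.85e-09 in that order. Other fits were adjusted over the miRNAs tested in them.

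The members were also compared between single pairs of indexes, with p-values adjusted over all miRNAs and all 3 pairs together. MiR-29a was higher with index 7 than with index 3 by 1.56 log2 units (SE 0.42, adjusted p = 0.000726, edgeR) and higher again with index 11 than with index 7 by 1.10 (SE 0.41, adjusted p = 0.0200). MiR-29b did not pass between index 7 and index 3, with a difference of 0.42 (SE 0.35, adjusted p = 0.367, edgeR), and passed between index 11 and index 7 with 1.41 (SE 0.35). For miR-29c the difference lay between index 3 and the others, with -1.95 (SE 0.37) for index 7 against index 3. Between index 11 and index 7 it was -0.08 (SE 0.36, adjusted p = 0.905, edgeR). Whether the members differed from each other in these steps was not tested. The test of the ratio of miR-29c to miR-29a, given above, covers no single step.

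Among the 139 abundant miRNAs the members were not extreme. The mean log2 range of CPM over the indexes was 2.16 for miR-29a, 1.35 for miR-29b and 2.58 for miR-29c, which ranked 63rd, 98th and 55th, beside a median of 2.02. Of the 139, 40 were higher with index 11 than with index 3 in both regions, as were miR-29a and miR-29b. In 85 miRNAs, miR-29c among them, index 3 was the higher one in both regions, and 14 differed between the regions. The log2 CPM difference of index 11 and index 3 was 2.05 in FCx and 2.26 in HP for miR-29a, 1.42 and 1.27 for miR-29b, and -2.39 and -2.65 for miR-29c.

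**Figure D3:**
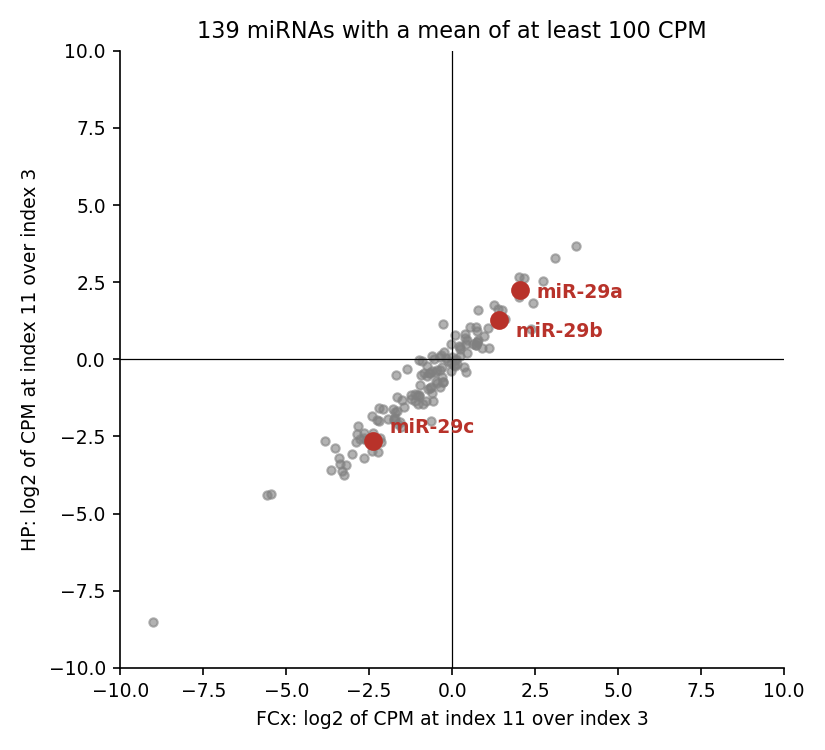
Log2 ratio of CPM with index 11 over index 3 in FCx (horizontal) and HP (vertical) for the 139 abundant miRNAs (grey) and the members (red). MiR-29a and miR-29b lie among the 40 miRNAs higher with index 11 in both regions, and miR-29c among the 85 higher with index 3.

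The miRNAs that ran along with a member over the 6 libraries were found by correlation of log2 CPM. Of 136 abundant miRNAs outside the family, miR-369-3p was nearest to miR-29a (Pearson r = 0.963), followed by miR-101a (0.874) and miR-93 (0.844). MiR-181b (0.968), miR-93 (0.944) and miR-101a (0.900) were nearest to miR-29b. Those nearest to miR-29c were let-7b* (0.956), miR-125a-5p (0.948) and miR-300 (0.933). MiR-29a correlated with miR-29b at 0.841 and with miR-29c at -0.845, and miR-29b with miR-29c at -0.496. These values describe 6 libraries that share indexes and RNA pools, and are not tests. As an illustration, miR-369-3p held 112, 432 and 1507 CPM in FCx with index 3, 7 and 11, and let-7b* held 889, 51.3 and 18.4 CPM.

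Other miRNAs that begin with the same 4 bases as the family did not share the direction of miR-29a. By RefSeq sequence and name, 6 such miRNAs outside the family were found in the files, namely miR-15a, miR-15b, miR-16, miR-195, miR-21 and miR-503. Only miR-16 and miR-21 reached a mean of 100 CPM. MiR-21 held 628, 627 and 78.2 CPM in FCx with index 3, 7 and 11, and 1191, 1127 and 141 CPM in HP. MiR-16 held 169, 86.9 and 36.8 CPM in FCx and 142, 170.1 and 47.4 CPM in HP. Both were lowest with index 11 in both regions, as was miR-29c in HP, while miR-29a and miR-29b were highest there. Over the 139 abundant miRNAs, index 3, 7 and 11 was the highest in both regions for 38, 37 and 29 miRNAs. In 85 of the 139 the level was lower with index 11 than with index 3 in both regions, and in 40 it was higher. The direction of miR-16 and miR-21 was therefore the more common one.

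The comparison of FCx and HP called none of the 3 members (edgeR quasi-likelihood test, TMM, 431 miRNAs). It asks whether the RNA pool of FCx differs from that of HP, since the libraries of a region share a pool. In all, 2 miRNAs or 0.464% passed, and 17 or 3.94% had an unadjusted p under 0.05. The log2 difference of FCx over HP was -0.37 (SE 0.82) for miR-29a, -0.18 (SE 0.83) for miR-29b and 0.15 (SE 0.85) for miR-29c, each with an adjusted p of 0.992. With library totals in place of TMM the differences were 0.07, 0.31 and 0.73, so the direction of miR-29a and miR-29b turned with the scaling. TMM placed the median of all 431 miRNAs at -0.37 and library totals at 0.03. Relative to that median, miR-29a lay at 0.00 with TMM and 0.04 with library totals, miR-29b at 0.19 and 0.28, and miR-29c at 0.52 and 0.70.

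Within an index both libraries carried the same tag, and their CPM, scaled by library totals, was compared. MiR-29c was higher in FCx with every index, by 1.70-fold with index 3, 1.26-fold with index 7 and 2.04-fold with index 11. It was also higher in both the individual and the pooled lane of each index, between 1.20-fold and 2.35-fold. MiR-29b was 1.17, 1.14 and 1.31-fold higher in FCx, with a counting interval of 0.969 to 1.41 for index 3 that includes 1. MiR-29a was 1.29-fold higher in FCx with index 3 and 1.12-fold with index 11, but with index 7 the ratio was 0.850. The ratio of miR-29a with index 3 was 1.48 in the individual lanes and 1.06 in the pooled lanes. MiR-29b and miR-29c were thus 2 of the 85 miRNAs that were higher in FCx at all 3 indexes, a background of 19.7% of the 431 miRNAs and of 27.3% of the abundant ones. These ratios depend on the scaling. After TMM scaling the ratios with index 3, 7 and 11 were 1.01, 1.42 and 1.28 for miR-29c, 0.696, 1.28 and 0.819 for miR-29b, and 0.764, 0.956 and 0.702 for miR-29a, so that miR-29b turned with index 3 and 11, as did miR-29a.

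**Figure D4:**
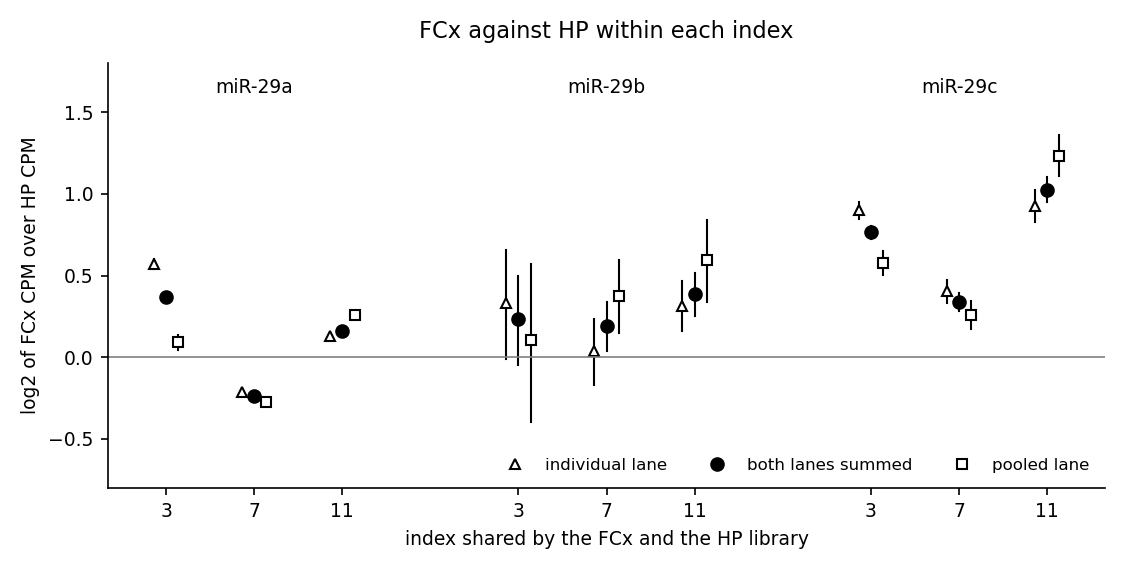
Log2 ratio of CPM (library totals) in FCx over HP for libraries with the same index; filled circles are both lanes summed, open triangles the individual lane, open squares the pooled lane, and bars are exact 95% counting intervals. All values of miR-29c lie above 0, and miR-29a lies below 0 with index 7 only, while TMM scaling turns miR-29a and miR-29b to below 0 with index 3 and 11.

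With the index as a replicate block the call of miR-29c depended on the scaling. With library totals the difference was 0.71 (SE 0.24, adjusted p = 0.0272, edgeR), at a background of 13.0% of the miRNAs called and 8.35% called as higher in FCx. With TMM it was 0.29 (SE 0.30, adjusted p = 0.596, edgeR), at a background of 17.9%. Without the index 3 libraries the blocked difference with library totals was 0.68 (adjusted p = 0.295, edgeR) and without those of index 11 it was 0.55 (adjusted p = 0.670, edgeR), while without index 7 it was 0.89 (adjusted p = 7.28e-05, edgeR). MiR-29a and miR-29b were called in neither blocked fit.

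The star forms, from the opposite arms of the hairpins, were rare, and are listed as miR-29a*, miR-29b* and miR-29c*. Those of miR-29a and miR-29c are shown from RefSeq with bases 2 to 8 in capitals, because their annotated 5′ ends differ from each other and from the members.
miR-29a*: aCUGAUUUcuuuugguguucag
miR-29c*: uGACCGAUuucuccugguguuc
MiR-29a* was counted 9, 9 and 4 times in FCx with index 3, 7 and 11 and 65, 23 and 4 times in HP. These counts correspond to 23.0, 6.16 and 6.13 CPM in FCx and 20.3, 4.64 and 0.987 CPM in HP. It was thus highest with index 3, where miR-29a was lowest.

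MiR-29c* was counted 5, 11 and 36 times in FCx and 36, 31 and 64 times in HP, which gave 12.8, 7.53 and 55.2 CPM and 11.2, 6.25 and 15.8 CPM. It was highest with index 11 in both regions, the opposite of miR-29c over index 3 and index 11. Both star forms passed the index test (edgeR, adjusted p = 2.48e-05 for miR-29a* and 6.75e-06 for miR-29c*). The background was 61.3% of the 431 miRNAs tested, so such a call is common. MiR-29b* was counted 0, 1 and 1 times in FCx and 8, 15 and 4 times in HP, where the 0 of the FCx library with index 3 allows up to 7.66 CPM. It did not pass the index test (adjusted p = 0.860, edgeR). None of the 3 star forms was called between FCx and HP, with or without the index as a block (edgeR). Of the 431 miRNAs, 0.464% were called without the block. With the block, 17.9% were called with TMM and 13.0% with library totals.

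The genome alignments gave the position and length of single reads. At the hairpins 99.99% of the reads of Mir29a lay on the arm of the member, 99.6% of Mir29c, 99.3% of Mir29b-1 and 95.7% of Mir29b-2. From 37.3 to 46.1% of the miR-29b reads were placed at Mir29b-1 and the rest at Mir29b-2. Both copies have the same mature sequence, so this division was made by the aligner and not by the reads. The 5p arms of the copies differ in sequence and held 12 reads at Mir29b-1 and 113 at Mir29b-2 over all libraries. The counts of miR-29b*, 2 in FCx and 27 in HP, were fewer and need not cover both arms. At Mir29c, 180 reads lay on the 5p arm. The most frequent forms, of 22 nt, began 2 bases (61 reads), 1 base (58) and 0 bases (53) after the first base shown for miR-29c*. At Mir29a, 95 of the 99 reads on the 5p arm had 22 nt and began at the base shown for miR-29a*.

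Nearly all counts of miR-29a were found again at its hairpin, but fewer of those of the other members. The alignments made up 97.9 to 99.3% of the counts of miR-29a, 54.3 to 76.7% of those of miR-29b and 59.6 to 96.5% of those of miR-29c. For miR-29c they made up 96.1 and 96.5% with index 3, but 72.4 and 81.4% with index 7 and 59.6 and 59.8% with index 11, where miR-29a was highest relative to miR-29c. The miR-29c counts without an alignment at the hairpin came to 0.411 to 1.57% of the miR-29a counts of the same library. The authors aligned with up to 2 mismatches, and miR-29a and miR-29c differ by 1 base. The part of reads assigned to the wrong member was not tested.

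The index pattern of the family was also present in the alignments, where the miR-29c share with index 11 was lower than in the counts. MiR-29c held 28.2, 2.73 and 1.11% of the family alignments in FCx with index 3, 7 and 11, and 23.0, 2.06 and 0.610% in HP. Scaled to the miRNA counts of the library, miR-29c alignments were 1.69, 1.12 and 2.03-fold higher in FCx than in HP with index 3, 7 and 11, against 1.70, 1.26 and 2.04-fold in the counts.

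The 5′ end of the members was sharply defined. Of the miR-29a alignments 93.6 to 97.6% began at the annotated first base, of those of miR-29b 90.8 to 100%, and of those of miR-29c 95.7 to 98.3%. A start 1 base early, on the C before the mature miRNA, made up 5.57, 1.41 and 2.21% of miR-29a in FCx with index 3, 7 and 11, and 5.39, 1.50 and 3.15% in HP. This share was highest with index 3 in both regions. Since every index tag also ends in C, such a start cannot be told from a tag base left on the read. The early start took 0.470, 0.730 and 1.19% of miR-29c in FCx and 0.463, 0.544 and 2.22% in HP, highest with index 11. For miR-29b it reached 9.10% in HP with index 11, and no such read was among the 99 alignments of the FCx library with index 3, which allows up to 3.03%.

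Most reads of the members were 22 nt long, and the rarer lengths differed between the indexes. Alignments of 22 nt made up 89.0 to 98.0% of miR-29a, 92.1 to 99.5% of miR-29b and 91.9 to 98.0% of miR-29c. This was also the usual length in the libraries as a whole, at 77.6 to 91.3% of all alignments of at least 14 nt. The 23 nt of the annotated miR-29b were seen in 0.231 to 4.04% of its alignments. This length was rare in the libraries as a whole, at 0.685 to 0.967% of all alignments of at least 14 nt. For miR-29a, 23 nt made up 2.65 and 2.35% (FCx and HP) with index 3, 5.23 and 3.79% with index 7 and 0.364 and 0.318% with index 11, while 21 nt reached 1.63 and 1.96% with index 11 and at most 0.120% with the others. MiR-29c likewise had more reads of 23 nt with index 7 (7.33 and 6.01%) than with index 11 (0.734 and 0.809%). Reads of 17 nt made up 5.55% of miR-29a in FCx and 4.43% in HP with index 7, against 0.0113 to 0.132% with the other indexes. They occurred in the individual and the pooled lane alike, at 5.41 and 5.72% in FCx and 4.36 and 4.56% in HP. Of these short reads 5377 of 5401 in FCx and 17343 of 17381 in HP began at the annotated first base, and the first 17 bases of miR-29a occur at 1 place in the genome. In miR-29b, reads of 17 nt were seen with index 3 (3.03 and 4.41% in FCx and HP) as well as index 7 (5.51 and 5.36%), from 3 to 49 reads a library, and such reads cannot be told from miR-29c. For miR-29c the highest share of 17 nt was 0.556%. Over all alignments of at least 14 nt, 17 nt made up 2.36 to 7.82%, highest with index 7 as well, but at 5.92 to 6.46% with index 3, where miR-29a had almost none.

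**Figure D5:**
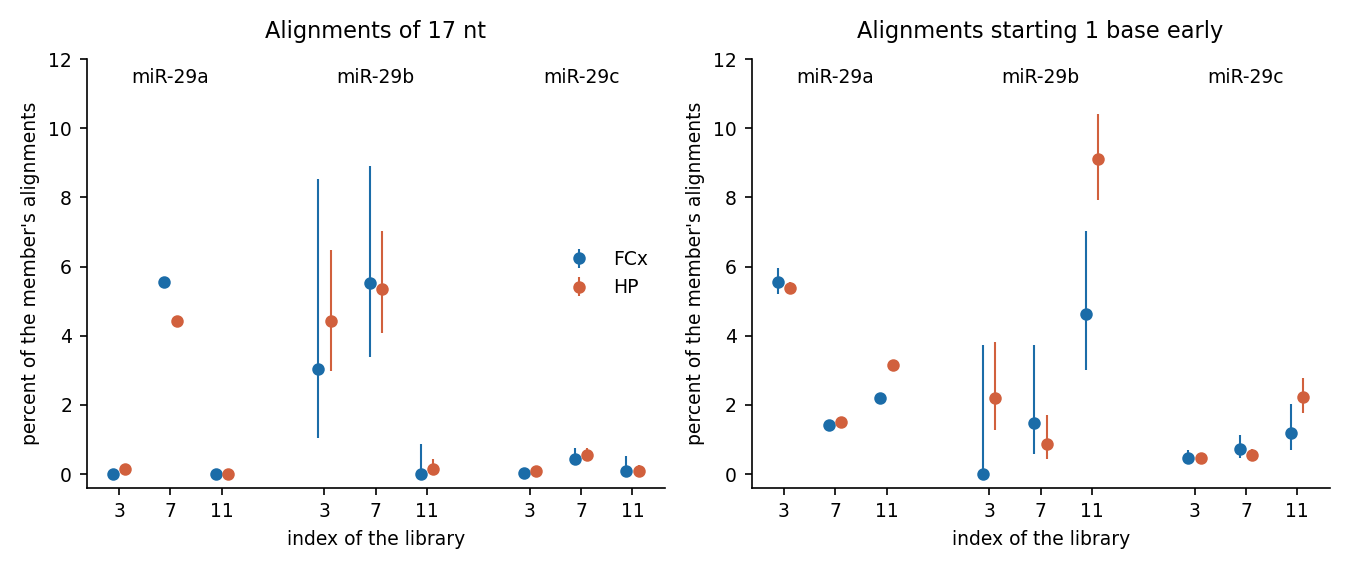
Percent of each member's alignments that were 17 nt long (left) and that began 1 base before the annotated start (right), by index, FCx in blue and HP in red; bars are 95% Wilson intervals. MiR-29a reached 5.55 and 4.43% of 17 nt with index 7 and at most 0.132% with the other indexes.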

How the data were processed

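MiRNA-Seq had been done on 3 FCx and 3 HP libraries, each in 2 lanes, with groups and indexes taken from the labels. For each lane the authors deposited raw counts, 1 whole number for every mature miRNA (miRBase version 11) with a read. Per the methods, reads were sorted by index, trimmed, freed of ribosomal and mitochondrial sequence and of reads under 14 nt, and aligned with Bowtie with up to 2 mismatches. The genome alignments the authors deposited give the interval and strand on NCBIM37 at which a read was placed, and their score column was not used.

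Both lanes of a library were summed (n = 3 per region). The 431 miRNAs whose libraries of either region summed to 2 counts or more were tested with edgeR 4.0.16 in R 4.3.3 (quasi-likelihood, TMM, Benjamini-Hochberg, threshold 0.05) and, as an alternative, DESeq2 1.42.0. The index pairs the libraries: deviations of log2 CPM (prior count of 2) of libraries with the same index correlated at 0.796, 0.846 and 0.854 over 431 miRNAs, those with different indexes at -0.618 to -0.226. A fit with the index as replicate block was therefore added. The scripts were tested on simulated counts. Intervals are 95% binomial (Wilson) for shares and exact Poisson for counts and cover counting error only, and a limit of 3 counts was set for a count of 0. Other values came from Python 3.11.15 with scipy 1.17.1, numpy 2.4.6 and pandas 2.3.3, and plots from matplotlib 3.10.9. The miRNAs named are the members, their star forms, the 3 most correlated miRNAs of each and the abundant miRNAs with the same first 4 bases. Members and lists were chosen with earlier results of these data known. Array data and predicted targets were not used here.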

Additional observations from a re-analysis of the deposited data

How the results depend on the processing

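The index test of the 3 members kept its call, and the direction between index 11 and index 3, in all 12 alternatives each. The highest index stayed the same. The lowest index of miR-29c was index 11 in the main fit but index 7 in several alternatives. That of miR-29b became index 7 without the FCx library with index 7. Without single libraries the log2 range from the lowest to the highest index was 2.63 to 3.03 for miR-29a, 1.77 to 2.17 for miR-29b and 1.81 to 2.17 for miR-29c. The number of miRNAs called between the indexes was 139 with at least 10 counts in every library, where fewer were tested, against 264, and 210 to 255 without single libraries.

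The log2 differences of FCx over HP changed sign with the scaling for miR-29a and miR-29b, and with single libraries for all 3 members. The fits without single libraries left the index out of the model, and the regions then held different sets of indexes. Region and index cannot be told apart in them, and the cause of the sign changes was not tested. For miR-29a the difference was 0.0707 with library totals, 0.10 with the replicate block and library totals, 0.26 with that fit without index 7 and 0.0657 without index 11, and -1.04 to 0.92 without single libraries. For miR-29b it was 0.31 with library totals, 0.27 with the replicate block and library totals, 0.29, 0.31 and 0.21 with that fit without index 3, 7 and 11, 0.12 with DESeq2, 0.13 with DESeq2 and the replicate block, 0.0136 without a filter, and -0.79 to 1.05 without single libraries. For miR-29c it was 0.71 with the replicate block and library totals and 0.89 in that fit without index 7, both called, and -0.57 to 1.39 without single libraries, below 0 only without the FCx library with index 3. The replicate block changed no other call of a member.

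Between FCx and HP 2 miRNAs were called, 77 with the replicate block, 56 with the replicate block and library totals (32, 73 and 29 without index 3, 7 and 11), 41 with DESeq2 and the replicate block, 12 with DESeq2, 9 with edgeR's exact test, 8 without a filter, 0 with at least 10 counts in every library (6 of 173 at an unadjusted p under 0.05), 0 in the pooled lanes (18 of 388) and 0 to 7 without single libraries, where 0 were called without the HP library with index 3 (14 of 420) or index 11 (17 of 419) and 7 without that of FCx with index 11 or HP with index 7 (all edgeR unless DESeq2 is named). The alternatives with DESeq2 and the replicate block, those leaving out an index, the sign-flip test and the ratios within an index after TMM scaling were chosen after seeing the data.

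In percentage points of FCx minus HP, without single libraries the family share ranged from -2.42 to 3.24, that of miR-29a in the family from -9.77 to 6.23, of miR-29b from -0.0604 to 0.136 and of miR-29c from -6.22 to 9.63. Here too the regions held different sets of indexes once a library was left out. The miR-29b share was -0.0115 in the individual lanes against 0.0269. Paired by index in an exact sign-flip test, the differences of the shares passed no threshold, since 3 pairs cannot give a p under 0.25. The star forms rest on 0 to 65 counts a library.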
